A study of Mus musculus with 54 samples.

Results

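The region around Podxl and its neighbour Mkln1 on mouse chromosome 6 was followed as a set of binding sites. All peaks of CTCF and of the cohesin subunits Rad21 and Smc3 with a summit in a window of 1.1 Mb that started 31 Mb into chromosome 6 (mouse build mm10) were taken, and peaks that overlapped by at least 1 bp were merged. This gave 48 sites, numbered S01 to S48 by position, of 75882 sites merged the same way over the genome. They held 631 of 781274 peaks, of which 397 were CTCF, 39 Rad21 and 195 Smc3 peaks. Within the window, sites were taken by position only and by no measured level. The window itself was not chosen blind. It was set around Podxl, which the study had picked partly for a cell-type-specific chromatin loop, with earlier results of these data known.

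The peaks came from chromatin immunoprecipitation and sequencing (ChIP-seq) of 44 libraries, each with its own peak list. Neural progenitor cells (NPCs), made by 2 days of differentiation, and the embryonic stem cells (ESCs) they came from were both of the mouse E14 line. In the rescue lines a degron tag on both endogenous CTCF alleles allowed CTCF to be removed, and a doxycycline-inducible transgene at the Tigre locus supplied Flag-Halo-tagged CTCF, either lacking its RNA-binding zinc finger 1 (ΔZF1) or wild type (WT). All rescue cells carried the OsTIR1(F74G) adaptor at Rosa26 and an Hb9 mCherry reporter, and all received 1 µM of the degrader 5-Ph-IAA and 1 µg/ml doxycycline for 24 hours. Each rescue line was 1 clone, so the ΔZF1 protein and the clone that carries it cannot be told apart. The ΔZF1 and WT rescues, as NPCs and as ESCs, had 4 CTCF, 2 Smc3 and 2 Rad21 libraries each. Podxl pA and Grb10 pA cells carried a homozygous eGFP and SV40 polyadenylation cassette after the first coding exon of the named gene, which ends its RNA early. They were untreated and were compared with untreated parental E14 cells, all as NPCs, with 2 CTCF and 2 Smc3 libraries per line. The peak lists hold no expression values, so the NPC label could not be checked against marker genes.

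CTCF binds DNA at a motif that has a direction. Cohesin, a ring that includes Smc3 and Rad21, extrudes a loop of chromatin until it meets bound CTCF, and stable loops mostly join a pair of CTCF motifs that point toward each other. Podxl encodes podocalyxin, a heavily glycosylated membrane protein known for the surface of kidney podocytes and of early embryonic cells. Mkln1 encodes muskelin, a subunit of the CTLH ubiquitin ligase. Podxl lies on the minus strand at chr6:31519488-31563981 and Mkln1 on the plus strand at chr6:31398735-31516811, so that the ends of both genes face each other.

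A 19-base CTCF motif learned from the strongest sites of the whole series was found within 100 bp of the summit at 36 of the 44 window sites that had a CTCF peak (81.8%), against 76.1% of all CTCF sites and 5% of windows shifted by 1000 bp, the share at which the score threshold was set. It lay on the plus strand at 22 sites and on the minus strand at 14. Below are the motifs of the sites on which the loop geometry and the comparisons turn, read from the RefSeq sequence of GRCm38.p6 (mm10), which is C57BL/6J and not E14. Capitals mark the 19-base match, the strand is that of the match, each run is read 5′ to 3′ on that strand, and the coordinates include the flanks of 5 bases.
S03, plus strand, chr6:31075921-31075949: tcgtgCTGGCCACCAGGTGGCGGCctcat
S20, plus strand, chr6:31368721-31368749: acctgAATGCCAGAAGAGGGCATCagatc
S30, Podxl intron, plus strand, chr6:31525669-31525697: tggcaGTGACCAGTAGAGGGCAGCcacct
S31, Podxl intron, plus strand, chr6:31528059-31528087: ccaagTAAGCCAGAAGAGGGAGTCagacg
S32, Podxl intron, plus strand, chr6:31556137-31556165: aagacAAAGACCCTAGGGGGCGCTctcct
S37, Gm43154 intron, minus strand, chr6:31639648-31639676: cactcTGGGCCACCAGATGGCGGGcacaa
S39, plus strand, chr6:31664640-31664668: tcgagAGTACCAGCAGGGGGCAGTggcac
S46, plus strand, chr6:31938332-31938360: atcatGCGAACAGCAGAGGGCGCTcgtgt

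The motif scores ranked S03 above 99.1% of all CTCF sites, S46 above 93.4%, S30 above 88.9%, S37 above 83.0% and S31 above 38.5%. S20 shared with 5 other sites of the window (S12, S24, S26, S34 and S48) the stretch AAGAGGGCATCAGAT, which holds the end of the motif and its flank. The stretch was picked as the run of 15 bases shared by most motif matches of the window. A higher share in the window therefore follows from the choice. It was present at 13.6% of the window's CTCF sites, searched only in the motif match with its flanks. Searched within 100 bp of the summit on both strands, it was present at 6.19% of all CTCF sites and at 0.445% of shifted windows. At S12, S20 and the Podxl intron site S31 all motif bases lay in sequence that the reference marks as repeat. At S29 it was 63% of them. Most motif bases were marked as repeat at 13 of the 36 window sites with a motif.

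The window overlapped 21 annotated genes, of which 3 code for protein (Mkln1, Podxl and 1700012A03Rik) and 11 are long intergenic noncoding RNA genes. Of the 48 sites, 24 lay before Mkln1, 4 in Mkln1, 4 in Podxl and 15 between Podxl and the end of the window, and the remaining site, S29, lay just past the 3′ end of Podxl. CTCF was called in at least 1 library at 44 sites, Smc3 at 34 and Rad21 at 11, and all 11 Rad21 sites also had CTCF and Smc3. Smc3 was called at 68.2% of the window's CTCF sites, against 55.9% of all CTCF sites, and Rad21 at 25.0%, against 18.6%. No site was called in all 22 CTCF libraries (2.77% of all CTCF sites were), and the most frequent, S01 and S20, were called in 21. At least 11 CTCF libraries called 15 sites (34.1%, against 28.0% of all CTCF sites). The lists held between 5755 and 45941 peaks for CTCF, 1306 and 10415 for Rad21 and 8169 and 34104 for Smc3, so a missing call is not absence of binding.

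**Figure D1:**
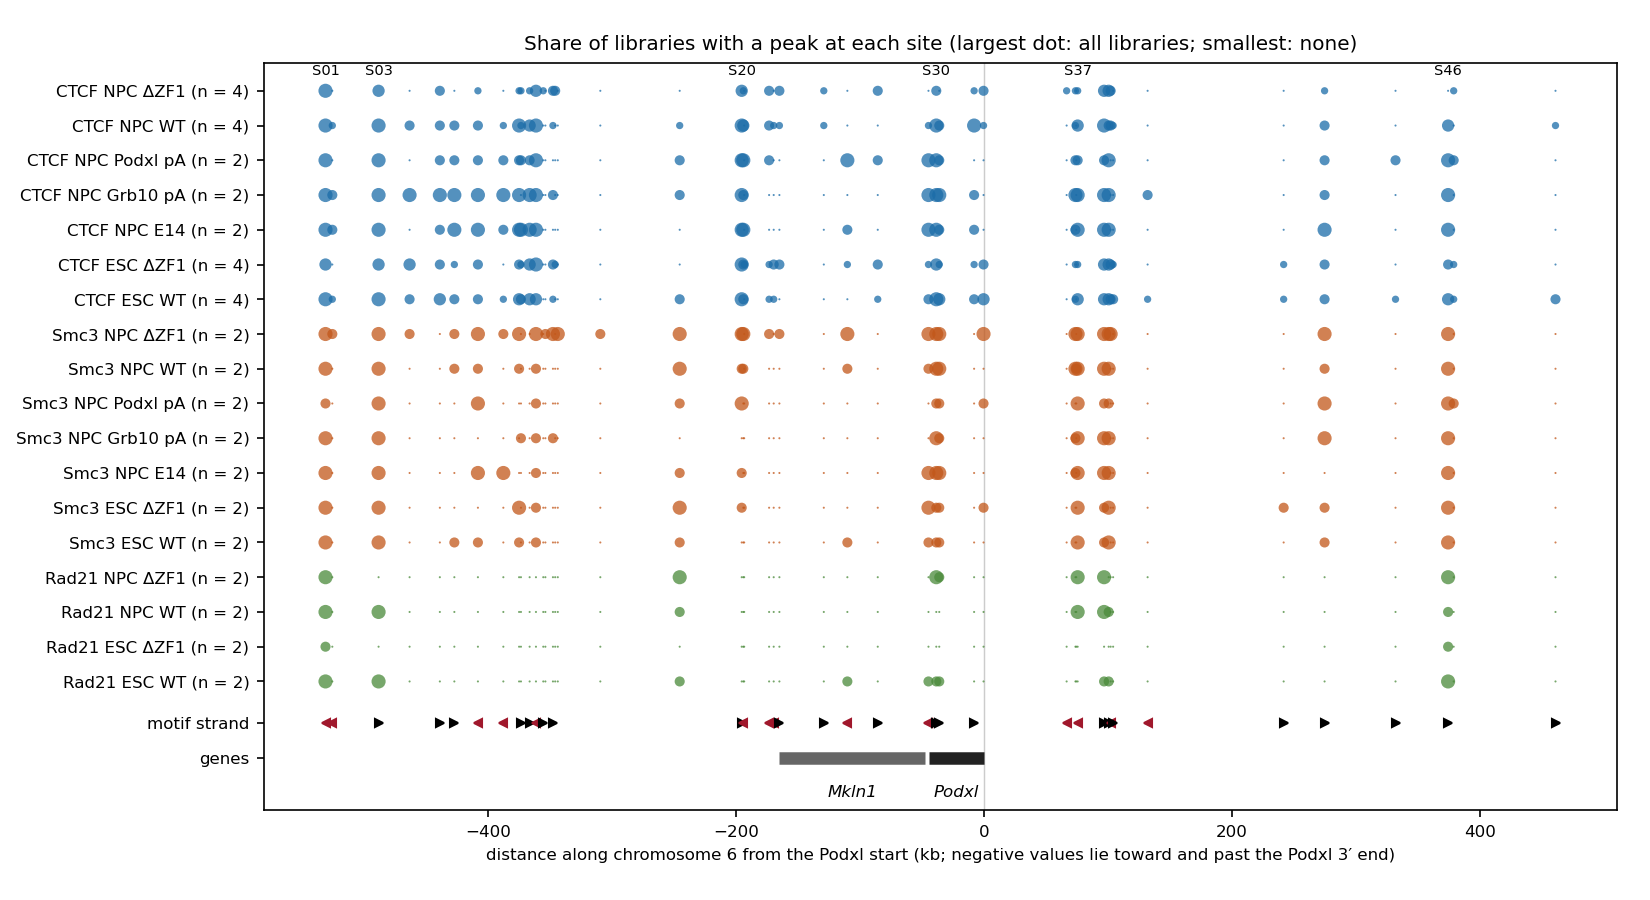
Calls at the window's 48 sites by distance from the Podxl start in kb along chromosome 6 (x axis) for each antibody and group (y axis), where dot size grows with the share of libraries in the group that called the site. Triangles give the motif strand and bars the gene bodies of Mkln1 and Podxl. S37, on the far side of the Podxl start, had an Smc3 peak in all 14 Smc3 libraries, and the Podxl sites S30 and S31 in 11 and 10.

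The largest cell-type difference among the window's tested sites was in cohesin at S37 (chr6:31639482-31640016), an intronic site of the noncoding gene Gm43154 that lies 75.7 kb upstream of the Podxl start. Smc3 at S37 was near the top of every NPC list and in the lower part of every ESC list. A site's level is given as its percentile by fold enrichment among all peaks of its own library. The Smc3 percentiles were 98.8 and 98.4 in NPC ΔZF1, 98.4 and 98.3 in NPC WT, 95.8 and 92.2 in NPC Podxl pA, 93.3 and 88.4 in NPC Grb10 pA and 94.6 and 98.0 in NPC E14, against 35.7 and 38.3 in ESC ΔZF1 and 32.4 and 16.7 in ESC WT. The 10 NPC libraries therefore lay between 88.4 and 98.8 and the 4 ESC libraries between 16.7 and 38.3, with no overlap. The Podxl pA, Grb10 pA and E14 libraries among them were untreated and had no ESC counterpart. Non-overlap was common within the rescue lines, at 2858 of 6491 tested sites in WT and 6822 of 9941 in ΔZF1. Its share was not counted for the pooled libraries. The fold enrichment over background was between 13.78 and 31.1 in NPCs and between 4.15 and 6.69 in ESCs.

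In the WT rescue, Smc3 at S37 rose in NPCs relative to ESCs by 2.83 on the normal-score scale, which expresses a percentile in SD units (SE 0.53, 95% interval 1.79 to 3.88, adjusted p = 0.000125 by limma, n = 2 each). It was the sixth largest increase of 6491 sites called in all 4 libraries. S37 was the only one of 5 tested window sites to pass, where 2.54% of all tested sites passed (165 of 6491, of which 158 were higher in NPCs) and the median site differed by 0.30. S01 and S39 differed by 1.19 (adjusted p = 0.232, limma) and 1.23 (adjusted p = 0.214, limma). The Smc3 lists held 27798 and 13710 peaks in NPC WT, against 17880 and 8169 in ESC WT, and the part of list length in the result was not tested. With sites called in at least 2 of the 4 libraries tested, the adjusted p of S37 became 0.159 by limma, and 0 of 18522 sites over the genome passed.

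The same comparison in the ΔZF1 line, which was added after the data were seen, gave a difference of 2.54 at S37 (SE 0.28, 95% interval 1.92 to 3.16, adjusted p = 0.00492 by limma, n = 2 each). Of 8 tested window sites 6 passed, namely S01, S03, S19, S29, S37 and S39, where 26.2% of all sites passed and the median site differed by 0.55. S19, in an intron of 2210408F21Rik, had Smc3 percentiles of 88.5 and 87.0 in NPC ΔZF1, against 21.4 and 11.7 in ESC ΔZF1 (difference 2.15, adjusted p = 0.00568, limma). The lists held 30516 and 34104 peaks in NPC ΔZF1, against 18023 and 12181 in ESC ΔZF1. The call at S37 did not hold without NPC ΔZF1 replicate 1, or without replicate 2. No other site of the window or the genome was called then either. Those fits leave NPC ΔZF1 with 1 library, so they cannot show whether the window is particular in this. Leaving out 1 library at a time, the difference at S37 was 2.48 to 2.6. Quantile-normalised fold enrichment called 3 of 8 window sites, S19 and S37 higher in NPCs and S09 lower, where 15.1% of all sites were called.

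**Figure D2:**
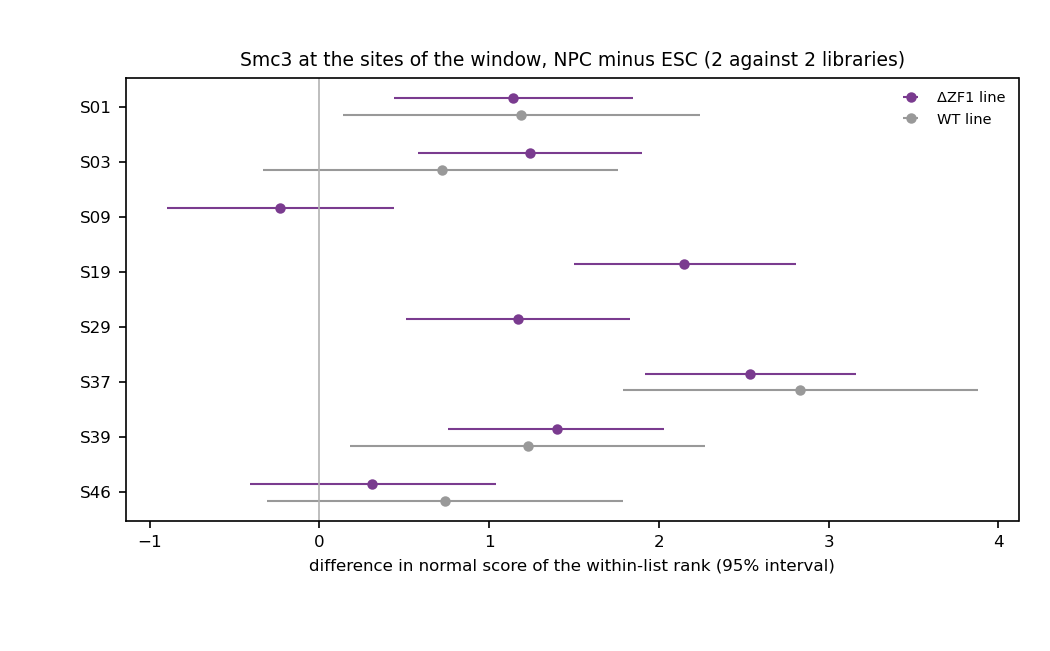
Difference in Smc3 normal score, NPC minus ESC (x axis, points with 95% limma intervals, 2 against 2 libraries), at each tested window site (y axis) in the ΔZF1 and WT lines. S37 lies farthest to the right in both lines, at 2.54 in ΔZF1 and 2.83 in WT.

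Rad21 at S37 was called in all 4 NPC libraries, at percentiles of 74.2 and 63.5 in ΔZF1 and 76.7 and 84.0 in WT, and in none of the 4 ESC libraries. The longest Rad21 list of the series, an ESC WT list of 10415 peaks, was among those without it. A site is termed switched where all libraries of 1 group called it and no library of the compared group did. In the WT rescue S37 was the only switched site of 11 with Rad21 in either cell type, where 6.53% of all sites were switched. In the ΔZF1 line, which was also added later, 4 of 7 sites were switched toward NPCs, namely S19, S30, S37 and S38, where 23.8% of all sites were switched. The ESC ΔZF1 Rad21 lists were the shortest, with 1306 and 2347 peaks, against 5117 and 6080 in NPC ΔZF1. At equal list length the WT comparison switched 2 of 6 sites, S37 and S38, where 12.9% of all sites were switched, and the ΔZF1 comparison 0 of 2, where 16.3% were. A 2 against 2 comparison cannot give an exact permutation p below 0.333.

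CTCF itself at S37 was called equally often in NPCs and ESCs of each rescue line. It was called in 1 of 4 NPC ΔZF1 libraries, at percentile 68.6, and in 1 of 4 ESC ΔZF1 libraries, at 60.1. It was called in 3 of 4 NPC WT libraries, at 78.3, 43.1 and 69.1, and in 3 of 4 ESC WT libraries, at 62.6, 78.8 and 69.6. The WT ranges overlapped. Where CTCF was called at S37 the summit held between 17 and 62 fragments in NPCs and between 22 and 62 in ESCs.

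**Figure D3:**
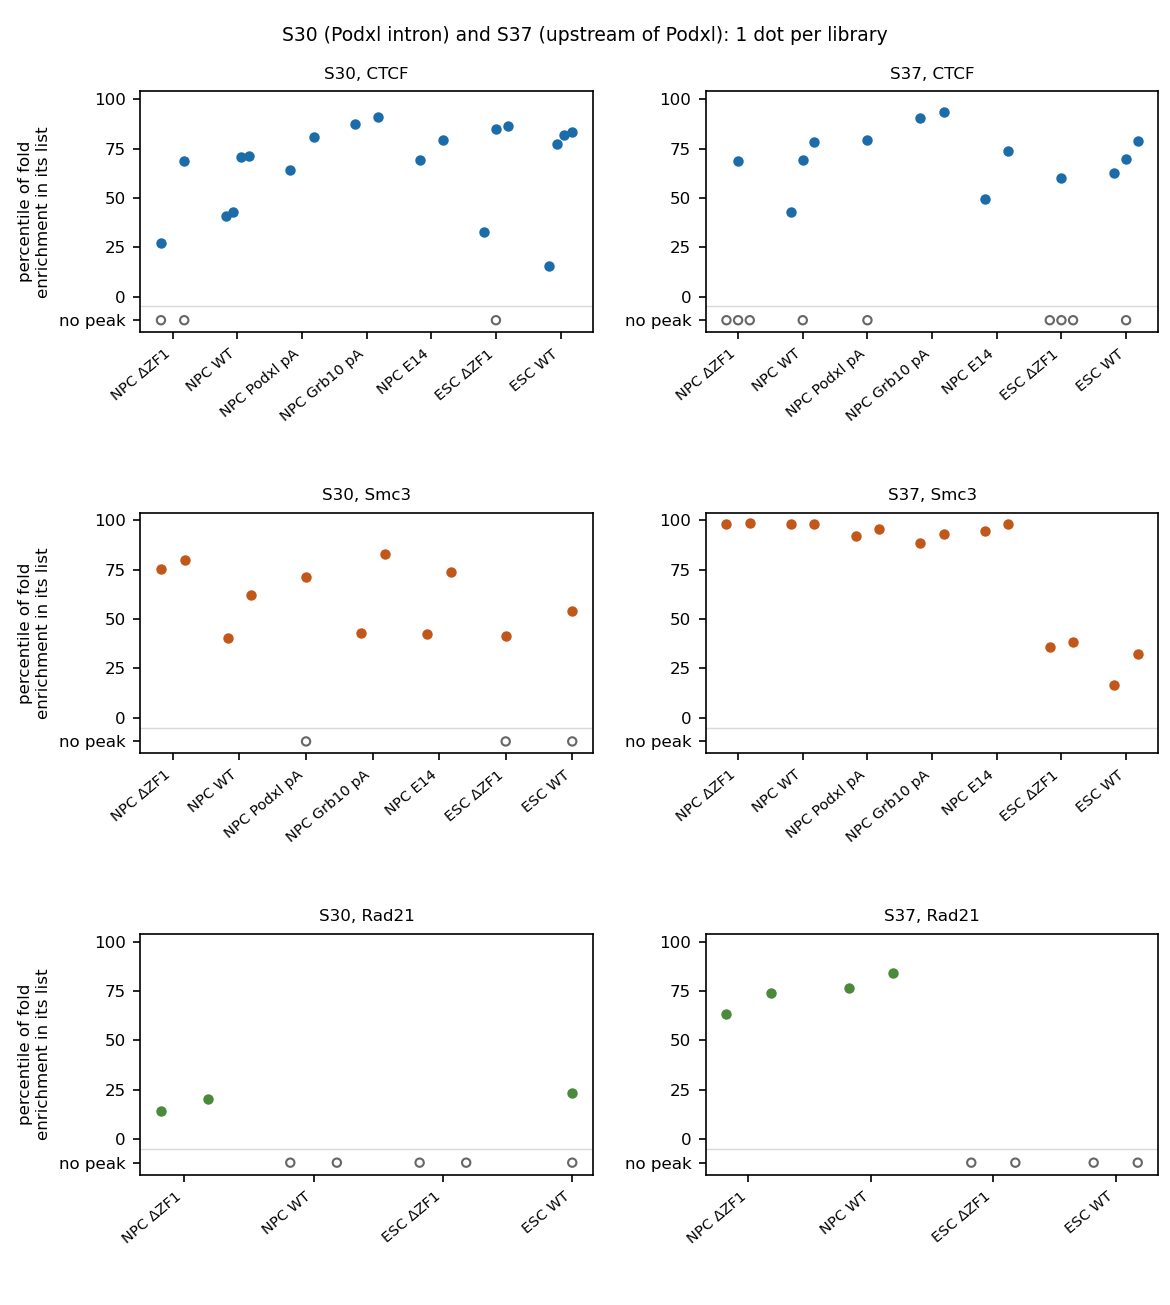
Percentile within the library (y axis) of S37 and of the Podxl intron site S30 for CTCF, Smc3 and Rad21 in each library, with the groups along the x axis from NPC ΔZF1 to ESC WT. Open circles mark libraries without a peak. Smc3 at S37 separates NPC from ESC libraries, and CTCF at both sites spreads within groups.

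Among sites called in at least 7 Smc3 libraries, 13 of 14 held the motif, 8 on the plus and 5 on the minus strand, and 8 pairs faced each other as plus strand before minus strand. The motif of S37 points toward Podxl, and those of S30 and S31 inside Podxl point toward S37, at 114.0 kb and 111.6 kb. S20 and S03, before Mkln1, also faced S37, at 270.9 kb and 563.7 kb. S03 further faced S07, S12 and S29, at 80.1, 126.9 and 443.4 kb, and S20 faced S29, at 150.6 kb. Contacts between sites were not measured in these libraries, so the pairs describe geometry only.

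Podxl held 4 sites. S30 (chr6:31525087-31525967, intron, 38.3 kb from the start) was the most often called, by 19 CTCF, 11 Smc3 and 3 Rad21 libraries. CTCF at S30 had percentiles of 68.6 and 27.1 in NPC ΔZF1, in 2 of 4 libraries, and of 40.9, 71.4, 70.8 and 42.7 in NPC WT. In ESCs it had 84.9, 86.6 and 32.8 in ΔZF1, in 3 of 4 libraries, and 77.3, 81.7, 83.3 and 15.3 in WT. The spread within a group was thus as wide as any gap between groups. In WT cells, NPCs and ESCs differed by -0.22 (95% interval -1.15 to 0.71, adjusted p = 0.931 by limma).

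Smc3 at S30 was called in 9 of 10 NPC libraries, at percentiles of 40.5 to 82.8, and in 2 of 4 ESC libraries, at 41.4 and 54.2. Per library it had 75.3 and 80.0 in NPC ΔZF1 and 62.0 and 40.5 in NPC WT. S31 (chr6:31527878-31528391, intron, 35.9 kb from the start) had CTCF in 10, Smc3 in 10 and Rad21 in 2 libraries. Its Smc3 percentiles were 62.7 and 74.7 in NPC ΔZF1 and 69.5 and 41.0 in NPC WT, and it was called in 1 library each of ESC ΔZF1, at 42.5, and ESC WT, at 54.3. Neither site had Smc3 in every ESC library. With missing calls set to the lowest value of their library, Smc3 differed between NPCs and ESCs by 1.90 at S30 and 2.01 at S31 in WT cells (adjusted p = 0.786 and 0.779 by limma), and by 2.84 and 2.56 in ΔZF1 cells (adjusted p = 0.238 and 0.271 by limma). None of these passed, and the Smc3 lists of the rescue lines were longer in NPCs than in ESCs of the same line and replicate.

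The other Podxl sites were weak. S32 (chr6:31555869-31556424, intron, 7.8 kb from the start) had CTCF in 10 libraries, with a median percentile of 13.7, and no cohesin call. Its CTCF percentiles were 59.6 in NPC ΔZF1, in 1 of 4 libraries, and 8.4, 18.2, 3.2 and 33.2 in NPC WT. S33 (chr6:31563435-31564487), which spans the Podxl start and has its summit in the UTR, had CTCF in 8 libraries, all at or below percentile 30.1, and Smc3 in 4. Its summits were spread over 874 bp, and no CTCF library of Podxl pA, Grb10 pA or E14 NPCs called it. The study's guide for the Podxl pA cassette matched the minus strand at chr6:31563564-31563583. Its cut lies between bases 31563566 and 31563567, 414 bp from the Podxl start, in an intron. The guide is shown because it places the edit within the S33 interval, with the PAM in capitals.
Podxl guide with PAM: taatggtgagtggacagccgCGG

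**Figure D4:**
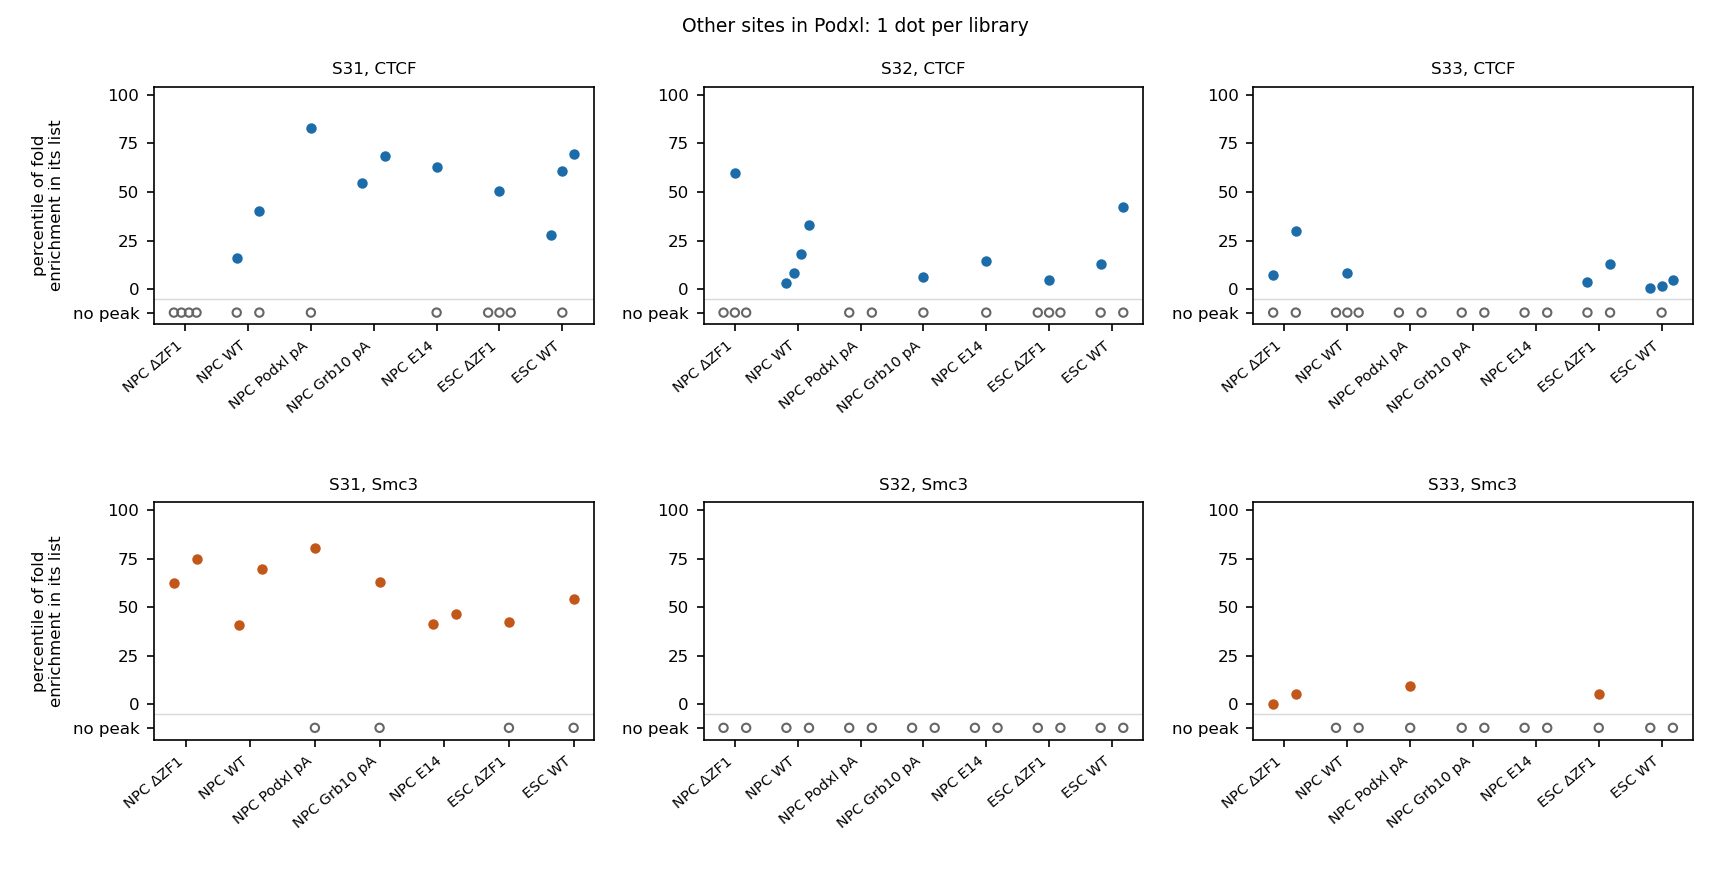
Percentile within the library (y axis) of CTCF and Smc3 at the Podxl sites S31, S32 and S33 in each library, by group from NPC ΔZF1 to ESC WT (x axis). Open circles mark libraries without a peak. S31 has both proteins, S32 has CTCF peaks only, and S33 stays at or below percentile 30.1.

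S29 (chr6:31519040-31519554), just past the 3′ end of Podxl, faces S03 and S20 with a minus strand motif. It had CTCF in 10 libraries, Smc3 in 8 and Rad21 in 1. Its Smc3 percentiles were 65.9 and 79.1 in NPC ΔZF1 and 26.3 and 31.2 in ESC ΔZF1 (difference 1.17, adjusted p = 0.0219 by limma, a call lost after quantile normalisation, with adjusted p = 0.272). In NPC WT 1 library had 76.9, and in ESC WT 1 library had 26.3.

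Mkln1 held 4 sites, none called in more than 6 CTCF libraries. S25 (chr6:31398727-31399500), at the Mkln1 start, was called in 5 CTCF libraries, at percentiles of 63.6 and 48.7 in NPC ΔZF1, 2.4 in NPC WT and 3.6 and 10.6 in ESC ΔZF1. S28 (chr6:31478228-31478640), in an exon, was called in 6, among them replicates 1 and 4 of ΔZF1 in both cell types and no WT library but 1 ESC one. These replicates are set apart from replicates 2 and 3 in the ΔZF1 comparisons. S27 (chr6:31453803-31454120), in an intron, had 4 CTCF, 4 Smc3 and 1 Rad21 calls, and S26 (chr6:31434862-31435187) had 2 CTCF calls. Cohesin in Mkln1 was thus confined to S27 and to 1 Smc3 library at S25, among these lists.

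Outside both gene bodies, 10 sites were called in at least 11 CTCF and 7 Smc3 libraries and were treated as loop-anchor candidates: S01, S03, S07, S12, S20, S37, S38, S39, S44 and S46. Smc3 was called in all 14 libraries at S03, S37 and S46. S01 (chr6:31032941-31033518), intergenic, was called in 21 CTCF libraries, and its Rad21 percentiles were 99.5 and 95.6 in NPC ΔZF1 and 88.0 and 97.2 in NPC WT, against 70.7 in 1 ESC ΔZF1 library and 75.7 and 69.9 in ESC WT. The difference in WT cells was 0.93 (95% interval -0.15 to 2.01, adjusted p = 0.384 by limma). Rad21 was tested at 2 window sites in WT cells, of which 0 passed against 2.67% of all sites, with 0 at an unadjusted p under 0.05 as well. In ΔZF1 cells 0 window sites had Rad21 in all 4 libraries, where 26% of the tested sites passed. With missing calls set to the lowest value of their library, 4 of 6 window sites passed there (S19, S30, S37 and S38), beside 50.1% of all sites. These are the sites switched for Rad21 in that line. All their ESC values were set ones, so the result repeats the call pattern and is no second test.

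S46 (chr6:31938089-31938648), 374.4 kb upstream of the Podxl start, also had Smc3 in every library. Its Smc3 percentiles lay between 47.4 and 96.4 in the 10 NPC libraries and between 36.8 and 87.9 in the 4 ESC libraries, so the cell types overlapped. S20 (chr6:31368355-31369031), in introns of Gm14532 and Mkln1os, paired strong CTCF with weak cohesin: its median CTCF percentile was 91.1 over 21 libraries, while Smc3 was called in 7 with a median of 39.4 and Rad21 in none. S12, which shares its repeat stretch, had a CTCF median of 80.5 over 20 libraries, an Smc3 median of 40.1 over 8 and no Rad21 call. S38 and S39 lay 97.0 and 100.7 kb upstream of the Podxl start, S07 in an intron of Lncpint and S44 in an intron of Gm13849.

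For CTCF, the question put by the ΔZF1 and WT rescues is whether losing zinc finger 1 changes where CTCF binds. In NPCs 0 of 39 window sites were switched, where 0.452% of all sites were, and in ESCs 0 of 41, where 0.0485% were. Only 1 window site was called in all 8 libraries of each comparison. S01 differed between ΔZF1 and WT NPCs by 0.11 (95% interval -0.66 to 0.87), with percentiles of 49.7, 85.1, 74.1 and 88.8 in NPC ΔZF1 and 82.7, 86.7, 55.9 and 60.8 in NPC WT. S20 differed between ΔZF1 and WT ESCs by -0.22 (95% interval -1.16 to 0.71), with percentiles of 93.4, 49.0, 95.2 and 77.4 in ESC ΔZF1 and 95, 66.3, 96.5 and 82.0 in ESC WT. Neither passed, and limma called 0% of all sites in NPCs (288 of 2366 at an unadjusted p under 0.05) and 0% in ESCs (119 of 5187). With the replicate number as a block, 11 sites of the genome passed in NPCs and 0 in ESCs, none of them in the window.

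CTCF at S37 was called in 1 of 4 ΔZF1 and 3 of 4 WT libraries in each cell type. S37 was not alone in this. In NPCs S46 was called in 0 ΔZF1 and 3 WT libraries, and S09 and S32 in 1 and 4. S16 and S28 went the other way, with 2 ΔZF1 and 0 WT libraries. Calls at several sites differed between replicates 1 and 4 and replicates 2 and 3. The labels name no batch, and these pairs were told apart by their background. Replicates 1 and 4 of the CTCF rescue libraries had a lowest background of 1.14 to 2.39 fragments per bp and replicates 2 and 3 of 0.392 to 0.905. Within replicates 2 and 3, 5 of 29 sites were called in neither ΔZF1 and both WT NPC libraries (S09, S21, S32, S37 and S46), where 20.4% of all sites were switched, 31 toward ΔZF1 and 6259 toward WT. In ESCs 3 of 29 were (S05, S31 and S37), where 8.17% of all sites were switched, 232 toward ΔZF1 and 2410 toward WT. Within replicates 1 and 4 the window's switched sites were on the ΔZF1 side, 3 of 34 in NPCs (S16, S28 and S33), where 4.69% of all sites were switched, 1331 toward ΔZF1 and 702 toward WT. In ESCs they were 2 of 40 (S25 and S28), where 2.44% were switched, 1229 toward ΔZF1 and 95 toward WT. The window's sides were thus those of most switched sites over the genome. These sites were named after their values were seen. The NPC ΔZF1 lists held 13639, 10242, 5755 and 33452 peaks, against 30555, 21339, 24908 and 15052 in NPC WT, and the part of list length was not tested.

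With missing calls set to the lowest value of their library, CTCF at S30 differed between ΔZF1 and WT by -2.14 in NPCs (adjusted p = 0.658, limma) and by -0.91 in ESCs (adjusted p = 1, limma). S30 was not alone in NPCs, where S09 differed by -2.34, S21 by -2.04, S11 by -2.01, S37 by -1.92 and S20 by -1.88. S01, S05, S23, S39 and S40 were higher in ΔZF1. Among sites called in every compared NPC library, the median difference over the genome was -0.39. For an interaction of ΔZF1 with cell type, no window site was called in all 16 CTCF rescue libraries, and limma called 0% of the 2122 sites that were (34 at an unadjusted p under 0.05). With missing calls set to the lowest value, 0 of 16 window sites and 0 of 17948 sites over the genome passed. Between NPCs and ESCs, 0 of 39 window sites were switched for CTCF in WT cells (0.136% of all sites) and 0 of 38 in ΔZF1 cells (0.232%). Of 4 sites tested in WT cells 0 passed (0% of all sites, 563 of 5982 at an unadjusted p under 0.05). In ΔZF1 cells no window site was called in all 8 libraries, and limma called 0% of all sites (204 of 2284 at an unadjusted p under 0.05). With the replicate block 18 sites of the genome passed there, none of them in the window. With missing calls set to the lowest value, 0 of 14 window sites and 0 of 16858 sites over the genome passed.

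For cohesin, no tested difference between ΔZF1 and WT at S37 passed limma. In NPCs Smc3 differed by 0.09 (95% interval -0.70 to 0.88, adjusted p = 0.926 by limma) and Rad21 by -0.36 (95% interval -1.28 to 0.55, adjusted p = 0.860 by limma). In ESCs Smc3 differed by 0.38 (95% interval -0.60 to 1.36). The width of these intervals does not show that the proteins act alike. In each of these comparisons the percentiles of the ΔZF1 and WT libraries at S37 did not overlap. Non-overlap was common there, at 5981 of 12076 tested sites for Smc3 in NPCs, 1946 of 6479 for Smc3 in ESCs and 927 of 2421 for Rad21 in NPCs. Smc3 at the Podxl intron site S30 was 0.73 higher in ΔZF1 than in WT NPCs (95% interval -0.07 to 1.53, adjusted p = 0.364 by limma), and S19 was 1.02 higher (adjusted p = 0.209, limma). The median of all sites was 0.39 higher.

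Of 10 window sites tested for Smc3 in NPCs 0 passed, against 0.472% of all sites, and 1 had an unadjusted p under 0.05. Without NPC WT replicate 1, whose exclusion leaves WT with 1 library assumed to vary like the others, 5 of 10 passed (S03, S19, S30, S38 and S39), where 42.5% of all sites did, and without replicate 2 only S20 of 18 did, where 2.22% of all sites did. In ESCs 0 of 5 passed, against 0.0309%, and 0 had an unadjusted p under 0.05. Switched Smc3 sites in NPCs were 4 of 31, all on the ΔZF1 side (S15, S17, S33 and S40), where 8.92% of all sites were switched, and in ESCs 0 of 19, where 3.32% were. The NPC Smc3 lists held 30516 and 34104 peaks in ΔZF1, against 27798 and 13710 in WT.

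Rad21 in NPCs was switched at 2 of 9 sites, toward ΔZF1 at S30 and toward WT at S03, where 7.77% of all sites were switched. Rad21 at S30 had percentiles of 20.2 and 14.1 in NPC ΔZF1. S03 (chr6:31075584-31076286), the intergenic site with the highest-scoring motif shown, had no Rad21 peak in the 4 ΔZF1 libraries, against percentiles of 70.9 and 37.8 in NPC WT and 41.9 and 47.0 in ESC WT. In ESCs S03 was the 1 switched site of 10, where 14.2% of all sites were switched. At equal list length S03 remained switched in NPCs and was not switched in ESCs. Smc3 at S03 was called in all ΔZF1 libraries, at 72.3 and 83.3 in NPC ΔZF1 and 28.7 and 35.7 in ESC ΔZF1. limma called 0 of 3 window sites for Rad21 in NPCs (0% of all sites, with 200 of 2421 and 0 of the 3 at an unadjusted p under 0.05). In ESCs no window site had Rad21 in all 4 libraries (0% of all sites passed, 132 of 791 at an unadjusted p under 0.05). With missing calls set to the lowest value, 3 window sites were tested there and S03 passed (difference -3.30, adjusted p = 0.0151 by limma), beside 35.7% of all sites. All ΔZF1 values of S03 in that fit were set ones, so it repeats the missing calls and is no second test.

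Between NPCs and ESCs, Smc3 was switched at 1 of 20 window sites in WT cells, S35 toward NPCs (6.53% of all sites were switched), and at 7 of 31 in ΔZF1 cells, all toward NPCs (21% of all sites). The 7 were S07, S15, S17, S21, S27, S35 and S40. S35 (chr6:31637610-31638035) lies close to S37 in the same intron of Gm43154. At equal list length S35 was not switched in WT cells.

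The Podxl pA line asks whether ending the Podxl RNA early changes binding around the gene. CTCF at S30 had percentiles of 80.8 and 64.3 in Podxl pA and 69.2 and 79.5 in E14 NPCs, which overlap (difference -0.04, 95% interval -1.13 to 1.04, adjusted p = 0.999 by limma). Smc3 at S30 was called in 1 of 2 Podxl pA libraries, at 71.3, and in both E14 libraries, at 74.0 and 42.7. Smc3 at S37 had 95.8 and 92.2 in Podxl pA and 94.6 and 98.0 in E14 (difference -0.25, 95% interval -1.53 to 1.02, adjusted p = 0.999 by limma). CTCF at S37 was called in 1 of 2 Podxl pA libraries, at 79.4, and in both E14 libraries, at 49.6 and 73.7.

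Of 9 window sites tested for CTCF 0 passed (0% of all sites, 361 of 12126 at an unadjusted p under 0.05), and of 4 tested for Smc3 0 passed (0%, 106 of 5047). The 1 window site at an unadjusted p under 0.05 was S39, with CTCF percentiles of 72.6 and 64.9 in Podxl pA and 27.4 and 26.8 in E14 (difference 1.10, adjusted p = 0.999 by limma). CTCF was switched at 0 of 29 sites, where 5.65% of all sites were. Smc3 was switched at 3 of 18 sites, S44 toward Podxl pA and S08 and S29 toward E14, where 6.81% were. Smc3 at S29 had no peak in either Podxl pA library, against 19.6 and 32.5 in E14. The Podxl pA lists held 10005 and 13292 peaks, against 15626 and 13875 in E14. At equal list length S29 was no longer switched.

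**Figure D5:**
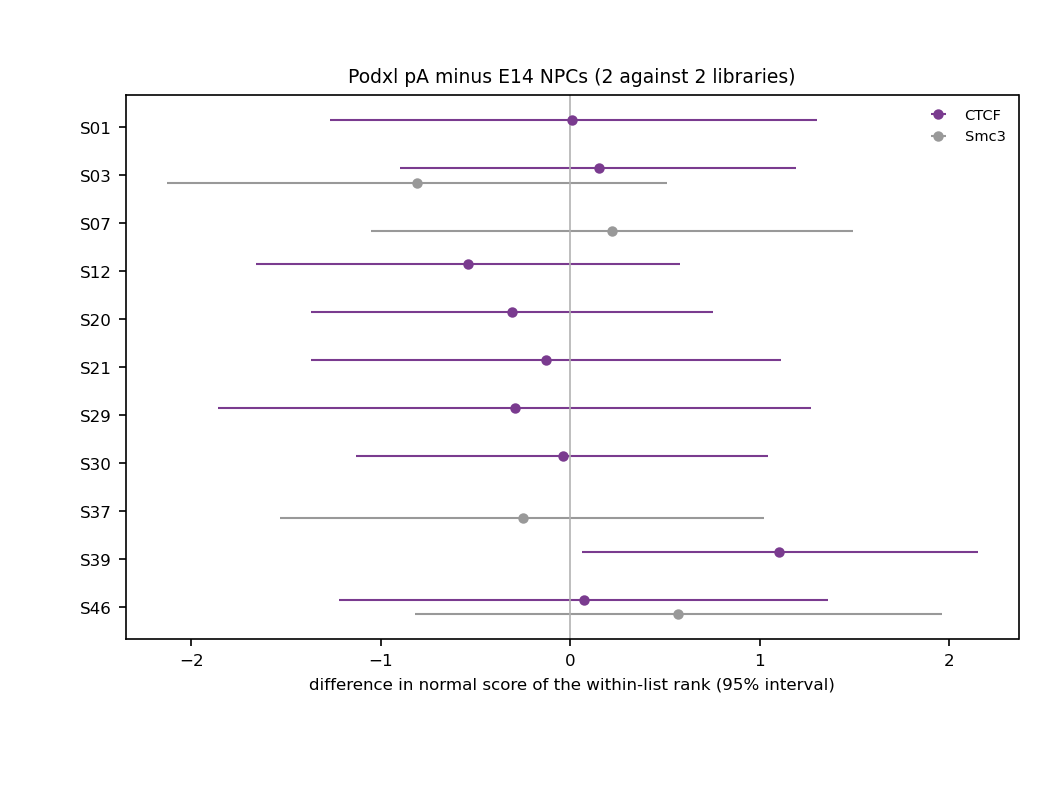
Difference in normal score, Podxl pA minus E14 NPCs (x axis, points with 95% limma intervals, 2 against 2 libraries), for CTCF and Smc3 at each tested window site (y axis). The interval of S39 for CTCF lies above 0, at 0.06 to 2.15, and all others include 0.

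Grb10 lies elsewhere in the genome, so Grb10 pA serves here as a second edited line measured beside the same E14 libraries. Of 14 window sites tested for CTCF 0 passed (0% of all sites, 2014 of 15539 at an unadjusted p under 0.05, of which 5 were in the window). S20 had 69.5 and 56.8 in Grb10 pA and 98.7 and 97.6 in E14 (difference -1.77, adjusted p = 0.341 by limma). S39 had 91.9 and 88.6 in Grb10 pA and 27.4 and 26.8 in E14 (difference 1.91, adjusted p = 0.341 by limma). After quantile normalisation these 2 sites of 14 passed, with adjusted p = 0.00319 and 0.0226 by limma, where 2.22% of all sites did. S37 had 90.4 and 93.7 in Grb10 pA and 49.6 and 73.7 in E14 (difference 1.11, adjusted p = 0.354 by limma), and its Smc3 had 93.3 and 88.4 in Grb10 pA.

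CTCF was switched at 2 of 28 sites in Grb10 pA, S04 toward the edited line and S10 toward E14, where 8.86% of all sites were. Smc3 was switched at 4 of 18, S44 toward Grb10 pA and S07, S08 and S29 toward E14, where 7.07% were. Of 7 sites tested for Smc3 0 passed (0% of all sites, 171 of 5357 at an unadjusted p under 0.05). Both edited lines were compared with the same E14 libraries. Sites S04, S08, S10, S15, S17, S21, S35 and S40 were named because they were switched, after their values were seen.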

How the data were processed

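ChIP-seq peak lists of 44 libraries were analysed, and the 10 input samples were not analysed here. Per the study's methods, the authors aligned reads to mm10 with Bowtie2, kept alignments of mapping quality 30 or more, removed Picard duplicates and blacklisted regions, and called peaks per sample with MACS2 at a q threshold of 0.01. SAMtools, bedtools and deepTools are also named in the submitters' processing notes. Versions, and the pairing of inputs with ChIP samples, are not given in the sources used here. The deposited lists hold a fold enrichment (a ratio of the summit pileup to local background), the −log10 of the p-value and of the q-value and a display score, all as deposited by the authors. No counts per region were used, so the study's count-based test was not repeated.

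Peaks overlapping by 1 bp were merged with pandas 2.3.3 (Python 3.11.15). The fragments at a summit and the background were solved from the fold and p, as whole numbers that returned the deposited p of the window's peaks within 2.5e-05 in −log10 p. Within each library peaks were ranked by fold, the rank was turned into a normal score and tested with limma 3.58.1 (R 4.3.3) over all sites called in every library of the comparison, with Benjamini-Hochberg adjustment over all of them, and an adjusted p under 0.05 was a call. Switched sites were counted with pandas, the fragment solution and normal scores used scipy 1.17.1, and sequences were read with pysam 0.24.0. With 4 against 4 libraries the smallest two-sided exact permutation p is 0.0286. Repeat sequence was taken from the soft-masking of the reference.

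Named sites were every site in Podxl or within 5 kb of its start, Mkln1 sites called in at least 4 CTCF libraries, the anchor candidates, sites switched in a 4 against 4 comparison, and sites passing limma in any comparison. The sites and lists were chosen with earlier results of these data known, and 2 of 16 comparisons (Smc3 and Rad21, NPC against ESC in the ΔZF1 line) were added after the data were seen. Alternatives were a quantile-normalised log2 fold, the rank by q, sites called in at least 1 of every 2 libraries, with missing calls set to the lowest value of the library, lists cut to equal length, a replicate block, replicates 1 and 4 or 2 and 3 alone, and each library left out.

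Labels were followed for the replicate numbers, although the peak names inside the lists of replicate 4 carry the number 2. Most same-numbered CTCF rescue libraries deviated together (correlations of 0.20 to 0.58 in the 4 comparisons of 4 against 4), as a finding of the data and not of the labels. NPC ΔZF1 replicate 1 did not. In both of its comparisons it correlated best with another number, and at 0.30 and 0.31 with its own. The main fits ignored the numbers, and the replicate block was an alternative. The part of the background difference between replicate pairs in these correlations was not tested. The labels do not say that replicates were separate cultures, so p-values measure only the spread between these libraries, and fragment numbers and intervals cover these libraries only.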

Additional observations from a re-analysis of the deposited data

Results flagged for a closer look

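CTCF at the Podxl intron site S30 in the 4 ESC WT libraries had 1 library far from the others. Replicate 4 lay at percentile 15.3, against 77.3, 81.7 and 83.3 in the other replicates, and the gap made up 0.912 of the group's range. It was the only such library among 19 sets of 4 CTCF values, and chance gives about 1 in 20 groups. The sets were percentiles at a window site called in all 4 libraries, or window peaks per 1000 peaks of a group. Replicate 4 had the shortest ESC WT CTCF list, with 11189 peaks. The NPC against ESC difference at S30 in WT cells was -0.22 with all libraries and -0.70 without this one.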

How the results depend on the processing

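Of 495 values under an alternative setting, over 60 results, 397 were graded same, 61 moved, 21 weaker, 6 stronger and 10 reversed. For counts of window sites and window peaks relative to list length, same meant an equal or similar value and moved any other. Many of these counts were 0 in both settings, which is no sign of a robust result. Direction and side of the threshold were judged only for differences at single sites. Limits are the 2 libraries per cohesin group, list lengths that differ between groups, 1 clone per rescue line and the absence of read counts. Causes of the changes below were not tested. For Smc3 NPC against ESC in WT, 0 of 17 window sites passed limma with sites called in at least 1 of every 2 libraries. Over the genome 0 of 18522 sites passed there. The number of window sites passing limma was 3 of 5 (S01, S37 and S39) with the replicate block, where 22.2% of all sites passed. In ΔZF1 cells it was 3 of 8 after quantile normalisation (15.1% of all sites), 11 of 22 with sites called in at least 1 of every 2 libraries (34.8%), and 0 to 10 leaving out 1 library (10 of 14 beside 40.3%). With sites called in at least 1 of every 2 libraries it was 4 of 6 for Rad21 NPC against ESC in ΔZF1 (50.1%) and 1 of 3 (S03) for Rad21 ΔZF1 against WT in ESCs (35.7%). These Rad21 sites had no call in 1 of the compared groups, so they repeat the switched calls. The same holds for S07, S15, S17, S21, S27, S35 and S40 among the 11 Smc3 sites. It was 2 of 14 for CTCF Grb10 pA after quantile normalisation (2.22%), and 0 to 5 for Smc3 ΔZF1 against WT in NPCs leaving out 1 library (5 of 10 beside 42.5%).

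At equal list length the number of switched sites was 2 for Smc3 ΔZF1 against WT in NPCs, 0 for Rad21 ΔZF1 against WT in ESCs, 2 for CTCF Podxl pA, 2 for Smc3 Grb10 pA, 0 for Smc3 and 2 for Rad21 NPC against ESC in WT, 2 for Smc3 and 0 for Rad21 NPC against ESC in ΔZF1, beside 6.26% to 16.3% of all sites in these comparisons. Smc3 peaks in the window were 1.1 per 1000 peaks, against a median of 0.827. Within the replicate pairs 1 and 4 or 2 and 3, CTCF ΔZF1 against WT switched 2 and 3 sites in ESCs and 3 and 5 in NPCs (replicates 1 and 4, then 2 and 3), and NPC against ESC switched 1 (WT, replicates 1 and 4), 1 and 1 (ΔZF1). The NPC against ESC count in WT stood beside 843 toward NPCs and 546 toward ESCs of 48638 sites. In ΔZF1 the counts stood beside 872 and 1427 of 53759, then 56 and 2425 of 24155, in the same order.

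Leaving out 1 library at a time, switched sites ranged over 0 to 2 for CTCF ΔZF1 against WT in NPCs, 0 to 1 for CTCF NPC against ESC in ΔZF1, 1 to 3 and 5 to 12 for Smc3 ΔZF1 against WT in ESCs and NPCs, 1 to 7 and 2 to 4 for Rad21, 1 to 10 and 3 to 7 for CTCF and Smc3 Podxl pA, 3 to 6 and 4 to 7 for CTCF and Smc3 Grb10 pA, 1 to 5 for both Smc3 and Rad21 NPC against ESC in WT, and 8 to 14 and 4 to 6 for them in ΔZF1. Counts over all sites moved too. The 10 for CTCF Podxl pA were of 27, beside 727 toward Podxl pA and 8574 toward E14 of 33373. The 12 for Smc3 ΔZF1 against WT in NPCs were of 30, beside 11905 toward ΔZF1 and 323 toward WT of 37827. The 14 for Smc3 NPC against ESC were of 31, beside 13523 toward NPCs and 593 toward ESCs of 38097. The 7 for Rad21 ΔZF1 against WT were of 9, beside 5 toward ΔZF1 and 7818 toward WT of 10492. Reversed differences were small: Smc3 ΔZF1 against WT NPCs at S37 was -0.09 after quantile normalisation, CTCF Podxl pA at S30 was 0.04 after quantile normalisation and -0.30 to 0.21 leaving out 1 library, CTCF ΔZF1 against WT was -0.48 to 0.11 at S20 in ESCs and -0.06 to 0.35 at S01 in NPCs, and at S01 it was -0.02 by the rank of q and -0.0 in replicates 1 and 4 alone.

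The replicate block changed no other call in the window. Between groups of 2, same-numbered libraries correlated at 0.15 to 0.35 for Smc3, 0.06 to 0.07 for CTCF and -0.12 to 0.14 for Rad21. The labels do not pair them, and 2 pairs are too few to decide it.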
